A study of Caenorhabditis elegans with 4 samples.

Results

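The regions described are the ZFP-1 ChIP-seq peaks on the 2 arms of chromosome II of Caenorhabditis elegans. A peak was taken as a member if it lay on II and its midpoint fell below 4880000 (left arm) or at or above 12020000 (right arm), in WormBase WS220 coordinates. Position alone chose the members, and no measured value entered the rule. The authors' peak list for the whole series held 716 such peaks among 13878, with 361 on the left arm and 355 on the right. The same windows held 185 of the 3559 peaks of replicate 1 (97 left, 88 right) and 367 of the 6371 peaks of replicate 2 (188 left, 179 right). The left arm spans 4.88 Mb. The right arm spans 3.25 Mb up to the last base of II under any peak, 15272338, which is a lower limit of the chromosome's length.

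All animals were wild-type N2, kept at 20 degrees and collected whole at the third larval stage (L3), from a population that the labels give as males together with hermaphrodites. Chromatin was precipitated with a rabbit polyclonal antibody against ZFP-1 in 2 replicates, and each has an input sample, for which no peak list was analysed here. The labels name no separate cultures for the replicates, so differences between them may be technical. Whole larvae were used, so a weaker peak can mean fewer cells with ZFP-1 at a site or less ZFP-1 per cell, and these cannot be told apart.

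ZFP-1 is a chromatin protein with plant homeodomain (PHD) fingers and a leucine zipper. It is the worm relative of mammalian AF10, and works with the histone methyltransferase DOT-1.1, which methylates lysine 79 of histone H3 on transcribed genes. Autosomes of this species have a gene-dense centre with little meiotic recombination, flanked by arms that recombine more, hold more repeats and carry more of the repressive methylation of lysine 9 on histone H3. The arms of II are therefore a place to ask how a protein known for binding active genes is spread outside the gene-dense centre, and whether the arms at either end of one chromosome are alike. With 1 group of 2 ChIP replicates, no test over samples was possible. Each quantity is given for the series list and for each replicate, and 95% intervals cover counting error over peaks only, treating neighbouring peaks as independent. How the series list was made from the replicates is not given in the sources used here, and it is not read as independent of them. No gene was assigned, since the gene table used here is on another build, and no sequence was read for the same reason.

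Peaks were sparser on the left arm than on the right in all 3 lists. In the series list the left arm had 74.0 peaks per Mb (95% interval 66.5 to 82.0), and the right arm had 109 (98.1 to 121). Replicate 1 held 19.9 per Mb on the left (16.1 to 24.2) and 27.1 on the right (21.7 to 33.3). Replicate 2 held 38.5 on the left (33.2 to 44.4) and 55.0 on the right (47.3 to 63.7). Dividing left by right gave a density ratio of 0.70 for replicate 2 (0.57 to 0.86) and 0.73 for replicate 1 (0.54 to 0.99), beside 0.68 for the series list (0.58 to 0.79), so the direction was shared and every interval lay below 1. In covered sequence the ratio was similar, at 0.67 for the series list and 0.65 and 0.66 for replicates 1 and 2. The series-list peaks covered 29.0 kb per Mb of the left arm and 43.1 kb per Mb of the right. With peaks less than 5 kb apart joined into clusters, the series-list ratio was 0.89, and its interval included 1 (0.70 to 1.14).

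Both arms were below the centre of II, the 7.14 Mb between them. The centre held 178 series-list peaks per Mb (169 to 188), 40.9 in replicate 1 and 74.5 in replicate 2. Of that density the arms together reached 0.49 in the series list (0.45 to 0.54). For the replicates the share was higher, with 0.56 in the first (0.46 to 0.67) and 0.61 in the second (0.53 to 0.69). Against the whole list, at 138 peaks per Mb, both arms were also low: they make up 8.11% of the sequence of the 6 chromosomes and held 5.16% of the series-list peaks, 5.198% of those of replicate 1 and 5.76% of those of replicate 2.

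**Figure D1:**
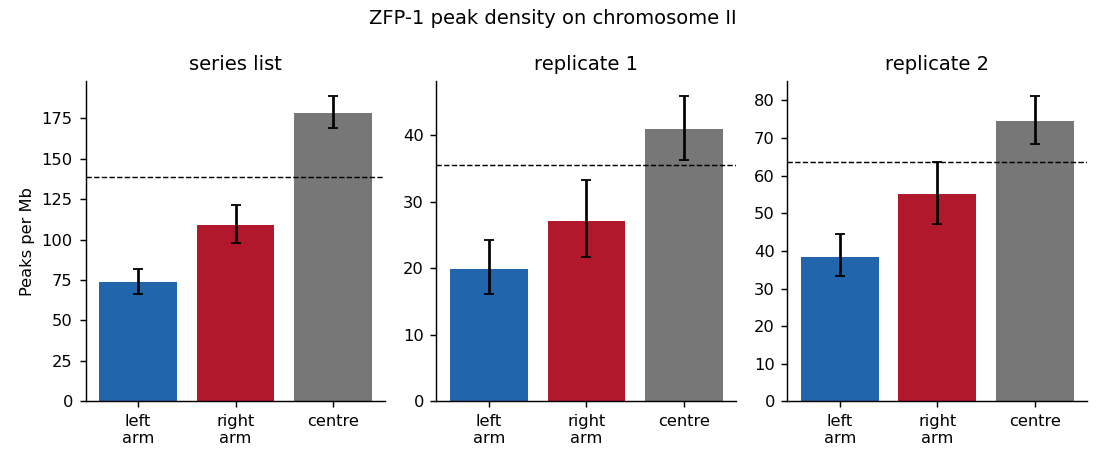
Peaks per Mb on the left arm, the right arm and the centre of II, in each of the 3 lists. Bars are densities, whiskers are exact 95% Poisson intervals for counting error, the dashed line is the density over all chromosomes, and each panel has its own axis from 0. The left arm is lowest in every panel, at 74.0 series-list peaks per Mb against 109 on the right arm.

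A denser right end set II apart in order, though not by a test, from the other autosomes. Windows at the same relative positions were placed on I, III, IV and V. There the left over right ratio was 1.25 on I (1.09 to 1.44), 1.03 on III (0.90 to 1.18), 1.74 on IV (1.48 to 2.06) and 1.89 on V (1.61 to 2.23) in the series list, against 0.68 on II. In replicate 1 the other 4 ran from 1.11 on III to 1.97 on V, and in replicate 2 from 1.00 on III to 2.16 on V. Thus II was the only autosome of the 5 whose right window was clearly the denser, in each list. The left arm of II, with 74.0 peaks per Mb, was the sparsest of the 5 left windows, the next being V with 85.3. Its right arm, with 109, was second to III, with 122. These windows on other chromosomes follow the borders of II in relative position and not those chromosomes' own arm borders.

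Over whole bins, density was uneven along the left arm and more even along the right. Over the 9 whole 500 kb bins of the left arm, counted outward from its inner border, the series list held 34.9 ± 14.2 peaks (SD across bins), from 18 to 61. Over the 6 whole bins of the right arm it held 51.8 ± 8.47, from 42 to 66. The coefficient of variation was 40.8% on the left and 16.3% on the right, and was likewise 48.3% against 17.2% in replicate 1 and 44.0% against 18.7% in replicate 2. With the shorter outermost bins counted too, in peaks per Mb, the values were 42.3% on the left and 27.1% on the right in the series list, 42.2% and 36.8% in replicate 2, and 47.1% and 79.5% in replicate 1, where the order of the arms turned. Bins share libraries and neighbours, so these SDs describe position and not experimental error.

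The densest left bin lay next to the centre, from 4380000 to 4879999, with 61 series-list peaks, 19 in replicate 1 and 36 in replicate 2. That bin came near the replicate densities of the centre, at 38.0 and 72.0 peaks per Mb. The sparsest left bin lay mid-arm, from 1880000 to 2379999, with 18, 3 and 10 peaks. Its outward neighbour, from 1380000 to 1879999, was nearly as empty, with 21, 5 and 9. Further out the count rose again, to 45, 10 and 19 peaks between 880000 and 1379999. The left arm was therefore lowest between 1380000 and 2379999 and higher on either side, in all 3 lists.

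On the right arm the densest whole bin of the series list, from 13520000 to 14019999 with 66 peaks, was among the lowest in replicate 1, with 9, while replicate 2 had 30 there. The sparsest, from 14520000 to 15019999, held 42, 11 and 19 peaks. Replicate counts over bins moved together on the left arm (Pearson r = 0.93, Spearman rho = 0.79, 9 bins). Over the 6 right-arm bins the values were r = 0.15 and rho = 0.22, over a narrower range of counts, with 9 to 14 peaks a bin for replicate 1 and 19 to 31 for replicate 2. These are descriptions across neighbouring bins of the same libraries.

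**Figure D2:**
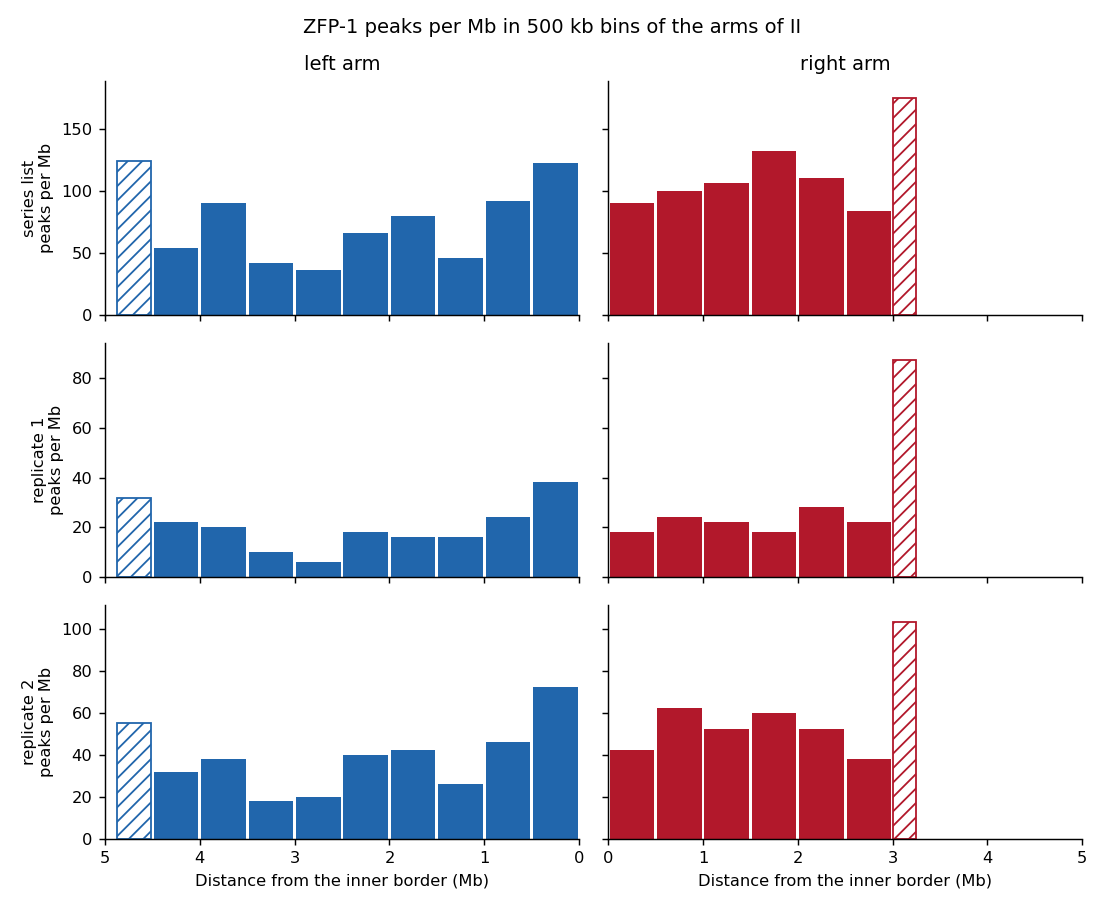
Peaks per Mb in 500 kb bins against distance in Mb from the inner border of each arm, so that the chromosome ends lie at the outer left and outer right. Rows are the 3 lists and hatched bars are the shorter outermost bins, of 380 kb on the left and 252 kb on the right. The left arm dips mid-arm, to 36.0 series-list peaks per Mb, and the outermost right bin stands highest in every row, at 174, 87.2 and 103 peaks per Mb.

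The outermost bin of the right arm was the densest of either arm. Its last 252 kb held 174 series-list peaks per Mb, and 61.4% of those peaks, 27 of 44, met both replicates. In the 6 whole bins of that arm 29.6% did, 92 of 311, and in the whole list 38.4%. The median series score was also higher in the outermost bin, at 31.9 against 18.0 in the whole bins. The part of score in this support was not tested. Replicate 1 had 22 of its 88 right-arm peaks in that bin, at 87.2 per Mb, and replicate 2 had 26 of 179, at 103 per Mb. Within it the last 100 kb alone held 32 series-list peaks, 18 in replicate 1 and 19 in replicate 2. The first 100 kb of the left arm held 16, 6 and 10, which was also above that arm's mean. This outer limit was chosen after the bins had been seen.

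The right end accounted for a different part of the left-right difference in each list. With the outermost 100 kb of both arms left out, the left over right ratio was 0.70 in the series list (0.60 to 0.82), 0.73 in replicate 2 (0.59 to 0.91) and 0.86 in replicate 1, where the interval then included 1 (0.62 to 1.19). Leaving out the outermost 500 kb gave 0.66 in the series list (0.56 to 0.77), and this cut was not computed for the replicates. In the 3 Mb next to each inner border the series list still gave 0.71 (0.60 to 0.85), with 221 peaks on the left and 311 on the right. Replicate 2 gave 0.80 (0.63 to 1.03), with 123 and 153, and replicate 1 gave 0.89 (0.62 to 1.29), with 59 and 66. Away from the chromosome end, a sparser left arm was thus not shown in replicate 1. In replicate 2 the interval lay below 1 without the outermost 100 kb, but included 1 in the 3 Mb next to the border.

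Much of that end was made up of 2 nearby groups of peaks. From 15203338 to 15219264 the series list had 12 peaks in 15.9 kb, 11 of them met in both replicates. Replicate 1 had 9 peaks there with scores of 75.7 to 345, and replicate 2 had 6 with scores of 596 to 2820. From 15254622 to 15267269 the series list had 6 peaks, replicate 1 had 5 and replicate 2 had 6. The highest score there was 2846 for replicate 1, 3100 for replicate 2 and 184 for the series list. The score is the authors' own value per peak, with no stated scale, and it is compared within a list only. The outermost member, from 15271452 to 15272000, had a series score of 32.8 and met replicate 2 alone. No input values could be set beside these end regions, so whether the input is also high there was not tested.

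The highest-scoring peaks were equally dense on both arms in the series list. Of its top 10% by score, 57 lay on the left arm and 38 on the right, which is 11.7 per Mb (8.85 to 15.1) and 11.7 per Mb (8.27 to 16.04), against 13.4 per Mb in the centre (10.9 to 16.4). The left over right ratio was 1.00 for these peaks (0.65 to 1.55) and 0.59 (0.47 to 0.74) for the lower-scoring 50%, which numbered 148 on the left and 167 on the right. In 5 equal score steps of the series list from lowest to highest, the ratio was 0.54, 0.65, 0.67, 0.66 and 0.84. The interval for the top 10% also takes in the 0.68 of all peaks, and whether the ratio differs between score classes was not tested.

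The replicate lists did not share that equality. Replicate 2 had 11 of its top 10% on the left arm and 16 on the right, 2.25 and 4.92 per Mb, with a ratio of 0.46 (0.19 to 1.05). Replicate 1 had 8 and 7, or 1.64 and 2.15 per Mb, with a ratio of 0.76 (0.24 to 2.47). These counts are small and every interval for the top 10% included 1. Across replicate score steps no ordered change was seen: the ratio ran from 0.55 to 0.84 in replicate 2 and from 0.57 to 1.51 in replicate 1.

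Against the centre, arm peaks scored higher in the series list. The median series score was 24.1 on the left arm, 19.0 on the right, 14.9 in the centre and 16.9 over the whole list. Low scores were fewest on the left: 13.02% of its peaks fell in the lowest-scoring 20% of the list, against 16.3% on the right and 22.4% in the centre. The top 10% made up 15.8% of left-arm peaks (12.2 to 19.97%), 10.7% of right-arm peaks (7.69 to 14.4%) and 7.54% in the centre (6.15 to 9.12%). Replicate 1 had the same order of medians, with scores of 218 on the left, 186 on the right and 180.5 in the centre, and its lowest-scoring 20% took in 15.5%, 19.3% and 21.9% of the peaks. The replicate 2 medians were 322 on each arm and 280 in the centre. In the replicates the arms' share of top-scoring peaks was below that of the centre, with intervals that overlapped in every case. Their top 10% made up 8.25% and 7.95% of left and right peaks against 9.25% in the centre in replicate 1, and 5.85% and 8.94% against 9.21% in replicate 2. The files write the caller of the series list as MACS v2 and that of the replicates as MACS, and the part of the caller in this difference of the top shares was not tested.

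**Figure D3:**
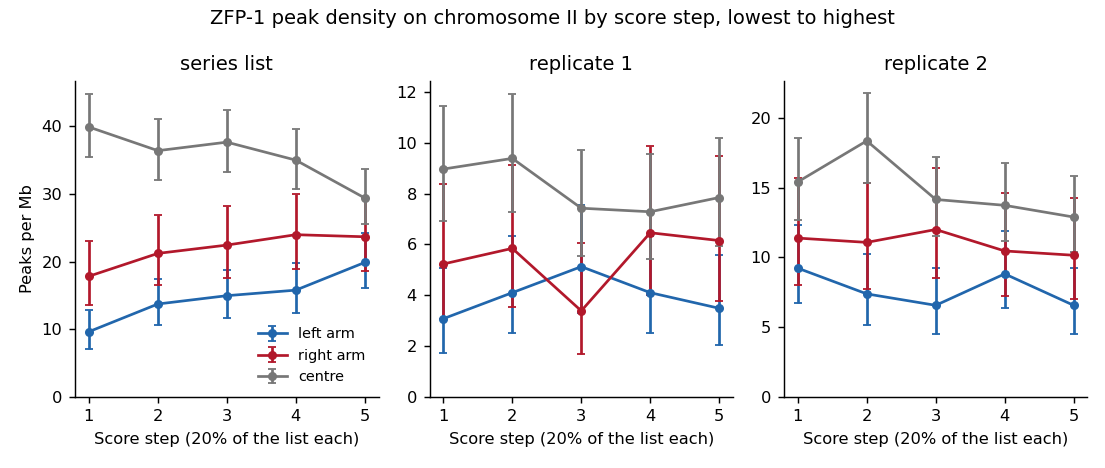
Peaks per Mb on the left arm, right arm and centre of II in 5 equal score steps of each list, step 5 being the highest. Points are densities with exact 95% Poisson intervals, and each panel has its own axis from 0. In the series list the arms approach each other and the centre in step 5, at 19.9 per Mb on the left, 23.7 on the right and 29.4 in the centre.

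Peak widths hardly differed between the arms at the median. In the series list the median was 302 bp on the left arm (interquartile range 221 to 446 bp) and 310 bp on the right (228 to 448 bp). In replicate 1 the medians were 1182 bp and 1240 bp, and in replicate 2 they were 1092 bp and 1099 bp. Left minus right was thus -58.5 bp for replicate 1, -7.0 bp for replicate 2 and -8.0 bp for the series list, each small beside the interquartile ranges.

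Wide peaks made up a smaller share of the left arm than of the right in both replicates. The interval of the difference excluded 0 in replicate 2. Peaks over 2 kb made up 14.4% of the left arm (14 of 97) and 25% of the right (22 of 88) in replicate 1. In replicate 2 they made up 11.2% (21 of 188) and 20.7% (37 of 179). Left minus right was -10.6 percentage points in replicate 1 (-22.0 to 0.91) and -9.50 in replicate 2 (-17.0 to -2.01). Over the whole list such peaks made up 23.3% in replicate 1 and 21.9% in replicate 2. The right arm was thus near the share of the whole list, and the left arm was below it. The series list divided broad replicate regions into several peaks and had only 2 peaks over 2 kb on each arm. In the centre the shares were 29.8% in replicate 1 and 25.6% in replicate 2, and its medians were 1361 bp and 1258 bp, so the right arm lay nearer to the centre than the left in both replicates.

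The widest peak of either arm lay on the left and was found in all 3 lists. Replicate 2 called it as 1 peak of 13024 bp, from 1234763 to 1247786, with a score of 3100. Replicate 1 called 3 peaks in the same stretch, the widest from 1235501 to 1244205 (8705 bp), also with a score of 3100. The series list divided it further, with a peak of 5923 bp from 1235683 to 1241605 (score 123) next to one of 2005 bp from 1241671 to 1243675 (score 197). Of 8 series-list peaks in the 13.4 kb from 1234054 to 1247416, 6 met both replicates, and all 8 together covered 83.2% of it.

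The other wide left-arm sites were fewer and also shared. A region from 3955533 to 3964004 (8472 bp) in replicate 2 held a replicate 1 peak of 4865 bp, from 3955711 to 3960575. The third widest in replicate 2, from 157753 to 164043 (6291 bp, score 3100), met 2 replicate 1 peaks and 6 series-list peaks. The third widest in replicate 1, from 4705904 to 4709788 (3885 bp), scored only 69.5 and met a replicate 2 peak of 1108 bp. In the series list the third widest was 1444 bp, from 3952248 to 3953691.

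On the right arm the widest regions differed between replicates. The widest series-list peak, from 14039396 to 14041804 (2409 bp, score 212), lay under the widest replicate 2 peak, from 14035215 to 14042106 (6892 bp, score 3100), and under a replicate 1 peak of 2273 bp with a score of 2329. The next series-list peaks were 2171 bp, from 13289869 to 13292039, and 1842 bp, from 13334147 to 13335988, and both met both replicates. The second widest replicate 2 peak, from 14664636 to 14671030 (6395 bp, score 1639), met 1 replicate 1 peak whose score of 50.6 was near the lowest of that list. The third, from 15204920 to 15209901 (4982 bp), lies in the end region and met 4 replicate 1 peaks. In replicate 1 the third widest, from 13194686 to 13199148 (4463 bp), matched a replicate 2 peak of 4806 bp.

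The widest pair of replicate 1 peaks on the right arm had little counterpart in replicate 2. They were neighbours, from 13816892 to 13822357 (5466 bp, score 336) and from 13822489 to 13830223 (7735 bp, score 924). In the 19.0 kb from 13817163 to 13836128, replicate 1 peaks covered 68.2% and replicate 2 peaks 16.6%, as 2 peaks with scores of 94.4 and 1254. The series list had 11 peaks there, of which 5 met replicate 1 alone, 3 met both and 3 met neither. This stretch was singled out after its values had been seen.

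Neighbouring peaks lay closer together on the right arm by the median gap. In the series list the size of this difference, and the order of the share of gaps under 1 kb, depended on the inner borders. The median gap, edge to edge, of the series list was 3670 bp on the left and 2316 bp on the right. It was 30518 bp and 11346 bp for replicate 1, and 10280 bp and 5070 bp for replicate 2. In the centre the medians were 1282 bp, 12822 bp and 5745 bp. The right arm thus had a median gap below that of the centre in both replicates, although its peaks per Mb were fewer. In replicate 1, 18 of the 88 right-arm peaks lay in the last 100 kb, and the median gap without them was not computed. Replicate 1 had 24.1% of its right-arm gaps under 1 kb (15.6 to 34.5%, 21 of 87) against 12.5% on the left (6.63 to 20.8%, 12 of 96). Replicate 2 had 25.8% (19.6 to 32.9%) against 16.6% (11.6 to 22.7%). In the series list the shares under 1 kb were 29.9% and 26.1%, with overlapping intervals, and those under 5 kb were 65.5% (60.3 to 70.5%) and 54.4% (49.1 to 59.7%). With both inner borders moved 500 kb towards the centre, the series-list medians were 2728 bp on the left and 2477 bp on the right. The share under 1 kb was then 33.2% on the left and 30.6% on the right, so its order turned. The borders were not moved for the replicate lists.

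**Figure D4:**
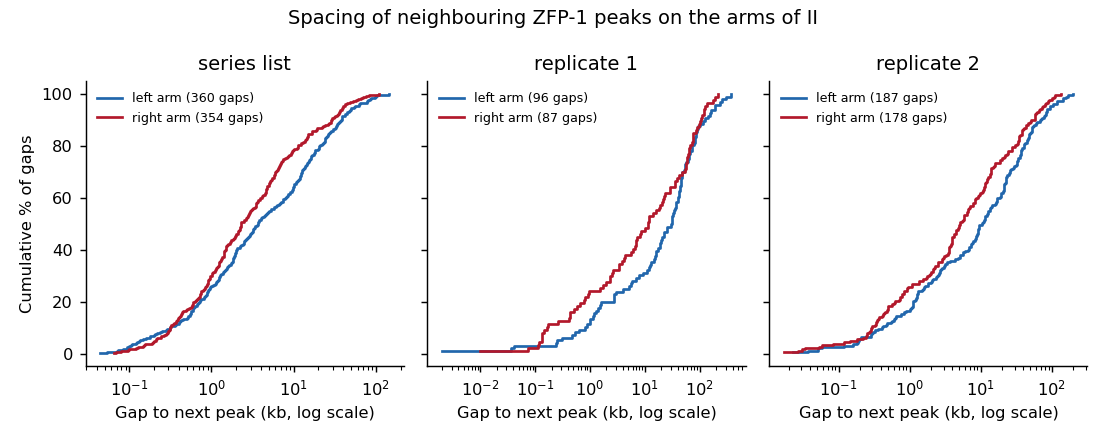
Cumulative share of gaps between neighbouring peaks on the left and right arm against gap length in kb on a log scale, in each list (gaps of 0 are drawn at 1 bp). The curve of the right arm lies to the left of that of the left arm over most of the range, with medians of 2316 against 3670 bp in the series list, while the replicate 1 curves meet near 50 kb.

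More of the right arm's peaks were in clusters, though a fixed distance limit joins more peaks where they are denser. With peaks less than 5 kb apart joined, the series list formed 165 clusters on the left arm and 123 on the right, which is 33.8 and 37.8 per Mb, much closer to each other than the peaks per Mb. Clusters of 5 or more peaks held 28.3% of left-arm peaks (102 in 15 clusters) and 48.2% of right-arm peaks (171 in 21 clusters), against 59.03% in the centre. Peaks with no neighbour within 5 kb made up 22.4% on the left and 14.9% on the right. In the replicates the single peaks were 56.7% and 44.3% in replicate 1, and 41.5% and 28.5% in replicate 2. Replicate 1 had no cluster of 5 or more on the left and 3 on the right, with 20 peaks, and replicate 2 had 2 and 5. Of those 20 peaks, 9 and 5 were in the groups at the right end that start at 15203250 and 15254622. The median gap divided by the mean gap was 0.280 on the left and 0.265 on the right in the series list. It was 0.621 and 0.320 in replicate 1, and 0.418 and 0.304 in replicate 2.

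The largest left-arm cluster, from 3948542 to 3963658, had 13 series-list peaks in 15.1 kb with a median score of 91.5, and 10 of them met both replicates. It overlaps the second widest peak of each replicate on that arm. The largest right-arm cluster, from 13002512 to 13031248, had 19 peaks in 28.7 kb with a median score of 15.1. Of these, 12 met replicate 2 alone and 4 met both replicates. Replicate 2 had 9 peaks there covering 53.3% of it, and replicate 1 had 2 covering 13.8%. The second, from 14033537 to 14051972, had 12 series-list peaks, 8 of them met in both replicates, and 6 and 5 peaks in the replicates. The single largest clusters of the 2 arms thus differed in score and in support, but that order did not hold for the next ones. In the second of the left arm, 3 of 9 peaks met both replicates and the median score was 22.8. In the second of the right arm the median score was 39.1. The third clusters went the same way as the second, and the fourth the same way as the first.

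Long empty stretches took up more of the left arm than of the right in the series list and in replicate 2, but not in replicate 1. Gaps of 50 kb or more numbered 21 on the left and took up 34.3% of that arm in the series list. On the right there were 11, taking up 24.5%, and in the centre 11, taking up 9.07%. The 3 longest on the left were from 2503972 to 2649020 (145 kb), from 2090907 to 2195471 (105 kb) and from 953268 to 1056933 (104 kb). On the right they were from 13338338 to 13447620 (109 kb), from 14865380 to 14958073 (92.7 kb) and from 12519841 to 12603323 (83.5 kb). No peak of either replicate had its midpoint in any of these 6 stretches. In replicate 1, which had fewer peaks, such gaps took up 73.0% of the left arm and 77.3% of the right, so the order between the arms was not shared, and in replicate 2 they took up 53.2% and 45.8%. Such gaps numbered 29 and 26 in replicate 1 and 28 and 19 in replicate 2, on arms of 4.88 and 3.25 Mb.

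Replicate support did not differ detectably between the arms. Of the left-arm peaks of the series list, 124 of 361 overlapped peaks of both replicates (34.3%, 29.5 to 39.5%). Of the right-arm peaks 119 of 355 did (33.5%, 28.6 to 38.7%), where 38.4% of all series-list peaks did. The difference of left minus right was 0.83 percentage points (-6.09 to 7.73). Met in replicate 2 were 67.6% on the left and 69.3% on the right, against 73.8% of the whole list. Met in replicate 1 were 34.9% and 35.8%, against 39.4%. Met in neither were 31.9% (27.1 to 36.9%) and 28.5% (23.8 to 33.5%), against 25.3% of the whole list and 25.3% in the centre. Support on both arms was thus at or below the level of the whole list.

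At equal score the left arm had lower support than the centre in each of the 5 score steps and the right arm in 4 of them, mostly with overlapping intervals. In step 4 of the 5 score steps, 32.5% of left-arm peaks (22.2 to 44.1%, 25 of 77) and 35.9% of right-arm peaks (25.3 to 47.6%, 28 of 78) met both replicates, against 50.8% in the centre (44.4 to 57.2%, 127 of 250) and 48.0% of the whole list. In the highest step the shares were 83.5%, 81.8% and 90.5%. In the lowest they were 6.38%, 12.1% and 17.5%, and in step 2 they were 11.9%, 8.70% and 20.8%. In step 3 the right arm, at 20.5%, was above the centre, at 19.0%, and the left arm was at 9.59%. The only interval that did not overlap that of the centre was that of the left arm in step 4. In the highest step the median width was 542 bp on the left, 594 bp on the right and 720 bp in the centre. In the lowest step it was 198, 189.5 and 193 bp, so the left arm was not narrower there. The centre holds more replicate peaks per Mb as well, and the part of width and of density in its higher support was not tested.

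**Figure D5:**
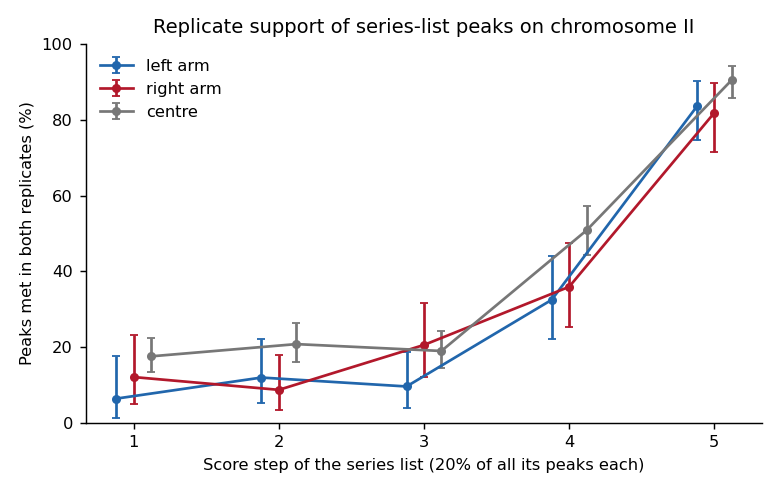
Share of series-list peaks met in both replicates on the left arm, right arm and centre of II, by score step (20% of all series-list peaks each, step 5 highest), with exact 95% Clopper-Pearson intervals. The arms overlap throughout, and both lie below the centre in step 4, at 32.5% and 35.9% against 50.8%.

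Seen from the replicate lists, nearly all arm peaks of replicate 1 were met in replicate 2: 95 of 97 on the left (97.9%) and 87 of 88 on the right (98.9%), at the 97.8% of the whole list. The 3 exceptions were from 475831 to 476792 (score 62.6), from 1660875 to 1661824 (score 108) and from 14961743 to 14962252 (score 61.9). Of the replicate 2 peaks, 91 of 188 on the left (48.4%, 41.1 to 55.8%) and 82 of 179 on the right (45.8%, 38.4 to 53.4%) met replicate 1, where 50.4% of the whole list did. Those met had median scores of 995 on the left and 1083 on the right, against 132 and 129 for those not met. Each replicate peak on the arms met at least 1 series-list peak. So did nearly all peaks of the whole lists, with 9 of 3559 unmet in replicate 1 and 11 of 6371 in replicate 2.

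Where both replicates called a site, their scores ran in parallel on either arm. Over 90 pairs of peaks on the left arm that were each other's best overlap, log10 scores correlated with r = 0.66 and rho = 0.72, and over 80 pairs on the right with r = 0.69 and rho = 0.74. In the centre 251 pairs gave r = 0.74. Leaving out pairs with a score of 3100 or more, at which many peaks are tied, gave r = 0.54 on the left (79 pairs) and 0.57 on the right (68 pairs). The points are sites of the same libraries. Shared bases made up 47.0% of the left-arm sequence under either replicate and 43.6% of that of the right. The shared part was 91.6% of the replicate 1 sequence on the left and 86.3% on the right.

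Series-list peaks met by replicate 1 alone were few, with 2 of 361 on the left (0.55%, 0.067 to 1.99%) and 8 of 355 on the right (2.25%, 0.98 to 4.39%), against 0.944% of the whole list and 1.10% in the centre. The interval of left minus right, -1.70 percentage points (-3.87 to 0.12), included 0. The 2 on the left, from 1661346 to 1661610 (score 49.0) and from 476103 to 476382 (score 23.5), lie in replicate 1 peaks that replicate 2 lacked. Of the 8 on the right, 5 belong to the stretch from 13817163 to 13836128 described above. They include the 3 highest-scoring, from 13825174 to 13825580 (20.5), from 13819698 to 13820148 (19.7) and from 13823067 to 13823574 (18.4). The other 3 lie elsewhere on the arm.

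The 10 highest-scoring left-arm peaks met in both replicates had series scores from 190 to 228 and lay between 602970 and 4377310. The first, from 3896676 to 3897404 (729 bp), scored 228, and lay under peaks of both replicates with scores of 2639 in replicate 1 and 3100 in replicate 2. The eighth, from 3897688 to 3898351 (score 191), lies under the same replicate peaks. The third and the fourth, from 3930590 to 3931148 and from 3929263 to 3930266 (both 211), share a replicate 2 peak of 2576 bp. With the tenth, from 3958190 to 3959431 (score 190), 5 of the 10 lie between 3896676 and 3959431. Nearer the left end lay the second and the fifth. The second, from 602970 to 603464 (score 218), had the highest replicate 2 score on the arms, 3212. The fifth, from 625900 to 626481, scored 198. The sixth is part of the widest region, from 1241671 to 1243675. The seventh, from 3661857 to 3662468, scored 192 and the ninth, from 4376146 to 4377310, scored 191. None lay in the sparse middle of the arm between 1380000 and 2379999, which held few peaks of any score. Its bins held 21 and 18 series-list peaks, of which 4 and 1 were in the top 10% of the list.

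On the right arm the corresponding 10 had scores from 181 to 228 and were spread from 12.1 Mb to the end. The first, from 13640992 to 13641775 (784 bp), scored 228, with 1807 in replicate 1 and 3100 in replicate 2. The tenth, from 13640086 to 13640605 (score 181), lies under the same replicate peaks. The second, from 12102244 to 12102723, and the eighth, from 12089447 to 12090181, scored 226 and 186 and lie near the inner border. The third was from 12603324 to 12604624 (score 217). The fifth and sixth, from 12995142 to 12996727 (211) and from 12952752 to 12953669 (199.8), lie inward of the largest cluster of the arm, which starts at 13002512. The fourth is the widest series-list peak of the arm, from 14039396 to 14041804, and the seventh, from 14050337 to 14050930 (190), is in the same cluster. The ninth, from 15258376 to 15259039 (184), is in the end region. In replicate 1 their scores ran from 516 to 2329, and in replicate 2 from 1892 to 3100.

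The strongest series-list peaks met in neither replicate scored far lower. On the left they were from 1851789 to 1852040 (35.7), from 2962594 to 2962804 (30.1) and from 4769905 to 4770140 (25.2), and on the right from 14563771 to 14563995 (24.1), from 14762546 to 14762751 (19.5) and from 14154364 to 14154554 (19.1). All 6 were between 191 and 252 bp wide. These 6 were chosen after their values were seen.

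At the inner borders the nearest peaks were as follows. On the left arm the last member, from 4866181 to 4866366, had a series score of 2.03 and met neither replicate, and the nearest peak beyond the border, from 4881718 to 4882215, scored 30.9 and met both. On the right arm the innermost member, from 12039951 to 12040563, scored 117 and met both replicates, and the nearest peak on the centre side, from 11979681 to 11979951, scored 4.70 and met replicate 1 alone.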

How the data were processed

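ZFP-1 ChIP-seq peak lists of 2 replicates and of the whole series were used. The authors deposited each as positions with 1 score per peak. The caller is MACS for the replicates and MACS v2 for the series list, coordinates are on WormBase WS220 and 1-based, per the file headers and columns. The submitters' processing notes name BWA and ce10 without roles. Control, pooling and the scale of the deposited score are not given in the sources used here, and depth is unknown.

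Peaks were assigned to arms by midpoint and counted as met from 1 bp of overlap, using scipy 1.17.1, pandas 2.3.3 and numpy 2.4.6 under Python 3.11.15. Overlaps were equal to those of bedtools 2.31.1. Ratios of densities have exact conditional binomial intervals, densities exact Poisson, shares Clopper-Pearson, and differences of shares Newcombe intervals, all at 95%. Scripts were tested on simulated data. The members, windows and lists were chosen with earlier results of these data known. Named peaks are, per arm, the 10 highest-scoring met in both replicates, the 3 widest per list, the 3 longest gaps, the extreme bins, up to 3 met by replicate 1 alone and those nearest each border; others are marked where named. Gene and sequence annotation was not used, since the gene table is on build WBcel235.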

Additional observations from a re-analysis of the deposited data

How the results depend on the processing

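Over 8 comparisons and 67 alternatives, 45 kept the value within its interval or, for medians and variation across bins, within 1 SD between replicates, and 20 moved it. The other 2 changed the direction of a difference whose interval or SD excluded 0. Of the 45, 5 changed sign within an interval that included 0: the share of gaps under 1 kb became 2.57 points with borders moved 500 kb inward, where the median gap difference of 1353 bp also fell to 252 bp, and the support difference of 0.83 points became -0.35 with 50% reciprocal overlap, -2.55 in the better-scoring 50%, and -1.71 and -0.87 without replicate 1 or 2. The left over right density ratio of 0.68 became 0.89 with clusters of peaks under 5 kb apart, where its interval included 1 (0.70 to 1.14). Alternatives chosen after seeing the data gave 0.86 in replicate 1 without the outermost 100 kb, 0.89 and 0.80 in replicates 1 and 2 for the 3 Mb next to the border, and 1.00 and 0.46 for the highest-scoring 10% of the series list and of replicate 2. The arms over centre ratio of 0.49 became 0.56 and 0.61 in replicates 1 and 2, 0.59 in the better-scoring 50%, 0.56 with borders moved 500 kb inward, 0.44 in covered bases, 0.70 in clusters and, chosen after seeing the data, 0.87 in the highest-scoring 10%, which alone had an interval with 1 (0.65 to 1.17). In replicate 1 the difference of median width became -58.5 bp and that of median gap 19172 bp. The difference in gaps under 1 kb, -3.83 points, became -11.6 in replicate 1 and -11.1 with a limit of 5 kb. The difference in the top 10% share, 5.09 points, reversed to -3.09 in replicate 2. The difference in variation across bins, 24.4 points, became 31.0 in replicate 1. With the shorter outermost bins it became 15.1, was 5.44 in replicate 2 and reversed to -32.4 in replicate 1, all chosen after seeing the data. For each of these the cause was not tested. No paired analysis was possible because no groups of samples were compared: the arms were measured within each replicate, whose ratios of 0.73 and 0.70 are only 2 values. Unknown depth and missing input values limit all density statements.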
